A study of Mus musculus with 12 samples.

Results

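The comparison described here is that of tumourspheres labelled LM9 Nfib KO with tumourspheres of the LM9 line, all genes included. Its members were chosen by sample title, and they are 6 of the 12 RNA-seq libraries of the series: LM9 replicates 1 to 3 and LM9 Nfib KO replicates 1 to 3. The same comparison was repeated with LM9 replicates 2 and 3 only, because LM9 replicate 1 was closer to the LM1 line than to the other LM9 libraries. Of 18278 genes listed in the deposited tables, 18176 were tested.

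LM9 is a line grown from a lung metastasis in an immunodeficient NOD/SCID mouse. Its founder was the mouse mammary cancer line HR1, derived from tumours of animals transgenic for mutant PIK3CA and mutagenised with the piggyBac transposon, and all groups share this origin by their labels. In LM9 Nfib KO, Nfib had been targeted with CRISPR-Cas9 guides to the first exons of the gene, and the line was a pool of very few clones grown from single cells. The study's methods name no matched pool of unedited LM9 clones, so that cloning and targeting cannot be told apart here. LM1, another lung metastasis line of the same screen, and its own knockout pool were used to estimate the spread and to place the libraries. All cells were seeded at 10000 per mL without attachment and grown for 6 days in medium with EGF (20 ng per mL) and bFGF (20 ng per mL), and the labels give no treatment that differed between the groups. They do not say whether replicates were separate cultures, so the p-values measure the spread between these samples, which may be technical.

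NFIB is a member of the nuclear factor I family, DNA-binding proteins that bind as dimers and act in the development of lung, brain, muscle and mammary gland. The family has 4 genes, Nfia, Nfib, Nfic and Nfix, whose products recognise the same kind of site. The study placed NFIB upstream of Ero1l, which encodes the endoplasmic reticulum oxidase that passes electrons from protein disulfide isomerase to oxygen, and of Vegfa, the secreted growth factor of blood vessels. Tumourspheres are clusters grown from dissociated cells in suspension and are used as a culture of cells able to grow without attachment.

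The libraries held 30009590 to 31254571 counts in LM9 and 34882800 to 37162594 in the libraries labelled LM9 Nfib KO. Levels are given in CPM, the usual unit of counts relative to the library total, here with totals scaled by trimmed-mean (TMM) factors, and a count of 3 in a library corresponded to 0.101 to 0.121 CPM in LM9 and to 0.073 to 0.078 CPM in the libraries labelled Nfib KO. These floors cover counting error only, as reads copied by PCR and carrying no molecular identifier need not come from separate molecules. The 100 most abundant genes took 21.6 to 26.1% of the counts in LM9 and 16.4 to 16.5% in the libraries labelled Nfib KO. Where 3 values stand in a row, they are those of replicates 1, 2 and 3.

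LM9 replicate 1 stood apart from its group. Over all genes its log2 CPM differed from LM9 replicates 2 and 3 by a root mean square of 1.02 and 1.06, whereas it differed from the LM1 libraries by 0.492 to 0.511, which is the distance of LM1 libraries among themselves (0.504 to 0.523). LM9 replicates 2 and 3 differed from each other by 0.62 and from the LM1 libraries by 1.01 to 1.08. In 1221 genes that separated LM1 from LM9 replicates 2 and 3, LM9 replicate 1 was nearer to LM1 in 1218, with a median position of 0.018 on a scale on which the mean of LM1 is 0 and the mean of LM9 replicates 2 and 3 is 1. By this measure LM9 replicate 1 was closer to LM1 than to the other 2 libraries of its label. The 3 libraries labelled LM9 Nfib KO differed from each other by 0.372 to 0.398. Their distance from the libraries labelled LM1 Nfib KO was as small, at 0.371 to 0.397, and that from LM9 was 2.86 to 2.96. Whether LM9 replicate 1 belongs to the line its label names, and whether the groups labelled as knockouts of LM9 and of LM1 are separate lines, cannot be told from the counts. Each fold change below is therefore a difference between libraries grouped by their labels.

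**Figure D1:**
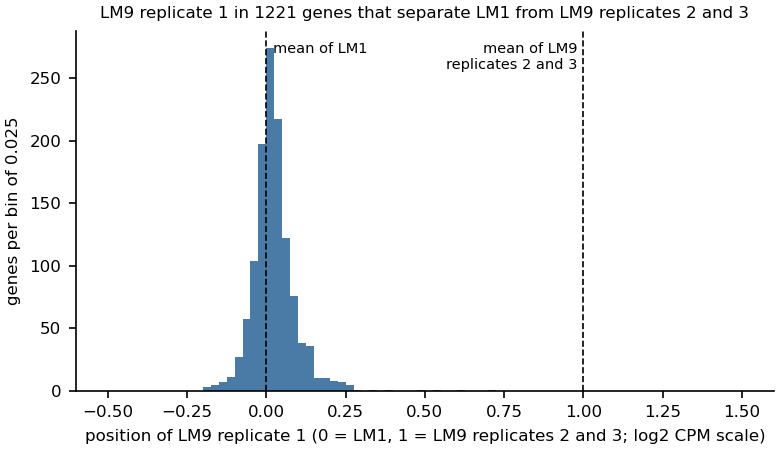
Histogram of the position of LM9 replicate 1 between the mean of LM1 (0) and the mean of LM9 replicates 2 and 3 (1), on the log2 CPM scale, in 1221 genes that separate those libraries; the y axis counts genes per bin of 0.025. The distribution is centred near 0, at the LM1 end, with a median of 0.018.

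The mRNA of the targeted gene was higher, not lower, in the libraries labelled Nfib KO. Nfib (ENSMUSG00000008575; chr4:82290173-82705750, minus strand, mm10) was at 210.3, 119.6 and 133 CPM in LM9 and at 227, 247 and 246 CPM in the libraries labelled Nfib KO. Every library labelled Nfib KO was above every LM9 library, and the lowest LM9 libraries were replicates 2 and 3. The log2 fold change was 0.68 ± 0.17 (SE, adjusted p = 0.0026) with 3 LM9 libraries and 0.92 ± 0.07 (SE, adjusted p = 1.11e-09) with replicates 2 and 3, so the excess was larger without replicate 1. An exact two-sided permutation test of 3 libraries against 3 cannot go below 0.1. By the study's methods the guides were made to shift the reading frame, and clones were screened by immunoblot. Gene counts show neither whether the protein was lost nor whether these libraries are of the line their label names. For this reason the samples are called KO-labelled libraries from here on, and "rose" and "fell" mean that a gene was higher or lower in them than in LM9 and passed the test. Nfib overlaps Gm11266 in the annotation, and whether the counting used strand is not given in the sources used here.

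The other NFI genes differed in direction. Nfix was at 214, 140.1 and 157 CPM in LM9 and 43.4, 45 and 49.2 CPM in the KO-labelled libraries, without overlap, a log2 fold change of -1.87 ± 0.14 (SE, adjusted p = 1.26e-07). Nfia was at 56.6, 33.6 and 39.1 CPM in LM9 and 25, 27.2 and 27.5 CPM in the KO-labelled libraries, and its fold change of -0.67 ± 0.15 (SE, adjusted p = 0.00168) shrank to -0.45 without replicate 1, which held the highest level. Nfic rose slightly, from 304, 306 and 337 CPM to 389, 397 and 409 CPM (0.34 ± 0.07, SE). Summed over the 4 genes, NFI mRNA was at 599 to 785 CPM in LM9 and at 684 to 731 CPM in the KO-labelled libraries, so the sums overlapped. With libraries scaled by total counts, Nfia did not pass the threshold and the median of the family turned from -0.17 to 0.19 (from -0.07 to 0.35 without replicate 1). With total counts 2 rose and 1 fell (2 and 1 without replicate 1).

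**Figure D2:**
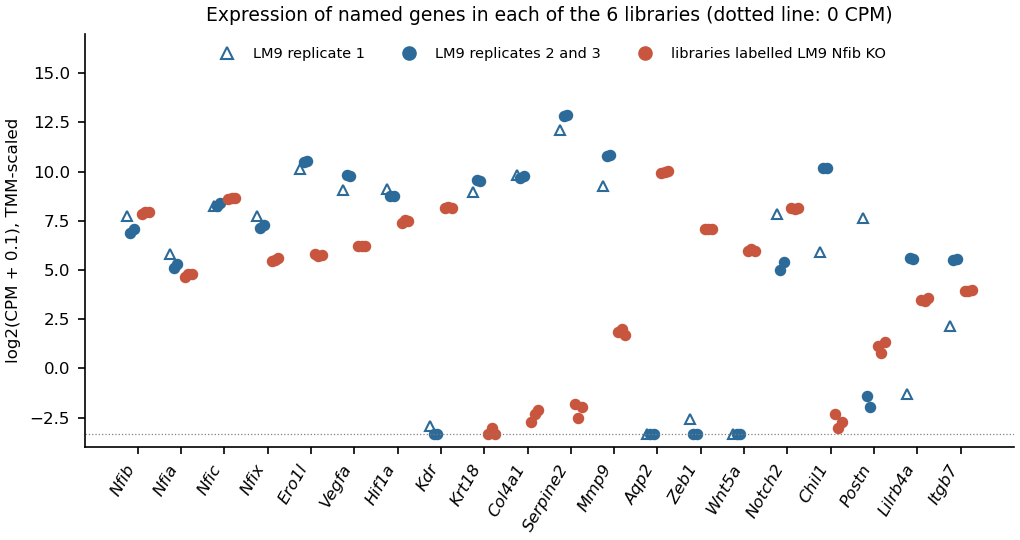
Each point is 1 library; the y axis is log2(CPM + 0.1), triangles are LM9 replicate 1, blue circles LM9 replicates 2 and 3, red circles the KO-labelled libraries. Nfib is higher in the red libraries, Ero1l, Vegfa, Krt18 and Serpine2 are lower, and in Chil1, Postn, Lilrb4a and Itgb7 the triangle lies far from the blue circles.

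Most measured genes differed between the groups. With 3 LM9 libraries, 14965 of 18176 genes passed an adjusted p of 0.05 (limma-voom, Benjamini-Hochberg over all genes tested, two-sided), which is 82.3% of them. Of all genes, 8055 (44.3%) rose and 6910 (38.0%) fell, and 10443 (57.5%) both passed and exceeded 1 in absolute log2 fold change. The median fold change was 0.13 and the median absolute one 1.24, against a median SE of 0.174. In 14630 genes (80.5%) the LM9 and the KO-labelled libraries did not overlap. Without LM9 replicate 1, 16185 genes passed (89.0%), of which 8692 rose (47.8% of all) and 7493 fell (41.2%), and the median SE was 0.102. Counts of list members that passed are to be read against these shares, since most genes of any kind passed. A gene was tested where enough of the 12 libraries reached 0.292 CPM before TMM scaling. Genes below that in every library of 1 group were tested only because they were higher elsewhere, so that the filter favoured a difference in 1 direction. There were 2054 such genes low in LM9 only and 1164 low in the KO-labelled libraries only. Of the 14936 genes that reached the minimum in a library of each group, called measured in both groups below, 40.8% rose and 38.9% fell (45.2% and 42.9% without replicate 1). Where a list held 3 or more members outside these, its count within them follows the count of all members tested. Scaling by total counts moved the median of all genes up by 0.35 on the log2 scale (0.42 without replicate 1), and 63.4% of the genes that passed then rose in place of 53.8%. Falls smaller than about that size turn in sign with total counts. In these bulk samples fewer cells of a type and less RNA per cell cannot be told apart.

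**Figure D3:**
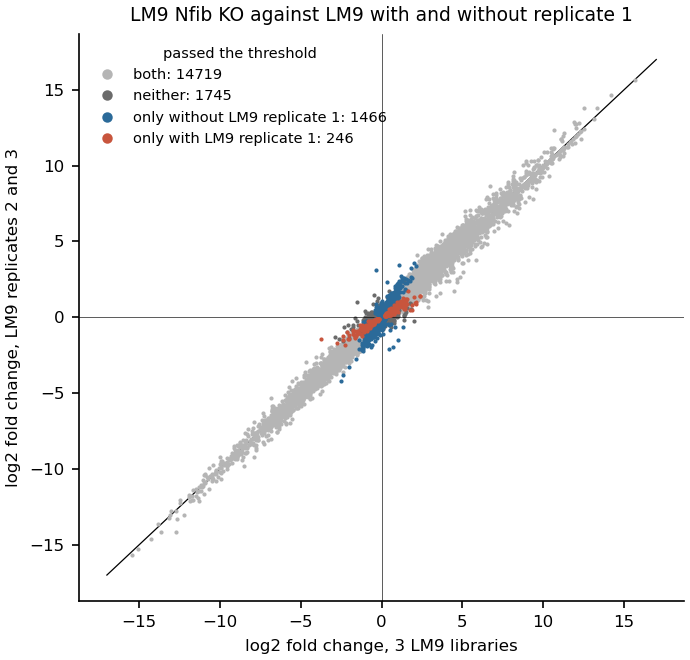
Log2 fold change of each of 18176 genes (KO-labelled libraries against LM9) with 3 LM9 libraries on the x axis and with LM9 replicates 2 and 3 on the y axis; colours show in which comparison a gene passed the threshold. Most genes that passed in only 1 comparison lie near 0, and both comparisons share all KO-labelled libraries and 2 LM9 libraries.

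Among genes with a mean of at least 100 CPM, the largest changes were between an abundant transcript and no more than a few counts. Serpine2, an extracellular inhibitor of serine proteases, was at 4429, 7276 and 7579 CPM in LM9 and 0.181, 0.073 and 0.156 CPM in the KO-labelled libraries. Krt18, the keratin of simple epithelia, had 51678 counts over the 3 LM9 libraries and 1 count over the 3 libraries labelled Nfib KO, and was 76447-fold lower (95% counting interval 13720.1 to 3.02e+06). Further genes of this kind were Mgp, a matrix inhibitor of calcification (236, 160.2 and 169 CPM in LM9, 0 counts in the other group, at least 2415-fold lower), and Gpa33, an antigen of intestinal epithelium (123, 330.4 and 335 CPM in LM9). Amigo2, an adhesion protein, was at 143, 87.4 and 93.8 CPM in LM9 and was at least 1386-fold lower, and it overlaps Pced1b in the annotation. In the opposite direction, Aqp2, the vasopressin-regulated water channel of the kidney collecting duct, had no count in any LM9 library and 977, 994 and 1052 CPM in the KO-labelled libraries, and was at least 8335-fold higher. Slc6a17, a transporter of neutral amino acids in synaptic vesicles, had 1 count in LM9 and 502, 503 and 511 CPM in the other group. Pdpn, the mucin-like protein podoplanin, was at 0.169, 0.0403 and 0.0394 CPM in LM9 and 424, 419 and 426 CPM in the KO-labelled libraries. Bcat1, a cytosolic branched-chain aminotransferase, was at 0, 0.161 and 0 CPM in LM9 and 199.7, 202 and 202 CPM in the KO-labelled libraries. Moxd1, a monooxygenase-like protein, had no count in LM9 and was at least 905-fold higher. Each of these genes kept its direction without LM9 replicate 1.

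Chil1, a chitinase-like secreted protein, showed how replicate 1 entered these values. It was at 61.2, 1161 and 1178 CPM in LM9 and 0.104, 0.0243 and 0.052 CPM in the KO-labelled libraries, so that replicate 1 was the lowest LM9 library by far and yet far above the other group. Its fold change was -12.72 ± 3.89 (SE) with replicate 1 and -14.14 ± 0.42 without it.

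Ero1l (ENSMUSG00000021831; chr14:45283087-45318771, minus strand, mm10) fell. It was at 1121, 1426 and 1460.4 CPM in LM9 and 56.4, 51.8 and 54.7 CPM in the KO-labelled libraries, with replicate 1 the lowest of the LM9 libraries and no overlap. The log2 fold change was -4.61 ± 0.09 (SE, adjusted p = 8.31e-12) with 3 LM9 libraries and -4.73 ± 0.04 (SE, adjusted p = 2.06e-21) with 2. Genes of oxidative protein folding were tested as a list of 21, of which 12 fell, 6 rose and 3 did not pass (13, 6 and 2 without replicate 1), with a median of -0.62 (-0.74). With total counts 7 rose and 11 fell (8 and 11 without replicate 1). Qsox1, a sulfhydryl oxidase that works beside ERO1, was at 515, 679 and 678 CPM in LM9 and 77.9, 81 and 79.6 CPM in the KO-labelled libraries, with a log2 fold change of -2.96 ± 0.10 (SE, adjusted p = 1.61e-10). Its paralogue Qsox2 was at 12.1, 6.57 and 8.15 CPM in LM9 and 26.5, 26.4 and 27.1 CPM in the KO-labelled libraries, a rise (1.60 ± 0.15, SE). Gpx8, a peroxidase of the endoplasmic reticulum, rose from 66.4, 44 and 44.9 CPM to 127, 118 and 119 CPM.

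P4hb, the protein disulfide isomerase that ERO1 oxidises, depended on replicate 1. It was at 1419.9, 2563 and 2558 CPM in LM9 and 1996, 1921 and 1929 CPM in the KO-labelled libraries. Replicate 1 lay below the KO-labelled libraries and replicates 2 and 3 above them, so the groups overlapped. With 3 LM9 libraries the fold change was -0.11 ± 0.18 (SE, adjusted p = 0.568), and with replicates 2 and 3 it was -0.39 ± 0.02 (SE, adjusted p = 2.16e-11). With total counts the latter value turned to 0.03.

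The unfolded protein response, which raises chaperones when folding in the endoplasmic reticulum fails, was tested with 26 genes. Of these 11 fell, 9 rose and 6 did not pass (12, 10 and 4 without replicate 1). The median was -0.11 (-0.06) and turned to 0.24 (0.36) with total counts, so the list as a whole had no direction that held under each scaling. With total counts 11 rose and 8 fell (15 and 8 without replicate 1). Hspa5, the chaperone BiP, was at 6426, 9233 and 9124 CPM in LM9 and 1419, 1340.4 and 1322 CPM in the KO-labelled libraries, with a log2 fold change of -2.58 ± 0.11 (SE, adjusted p = 1.66e-09), and Manf, a secreted factor of the same response, fell from 236, 254 and 253 CPM to 94.5, 94.4 and 95.2 CPM. Chac1, a glutathione-degrading enzyme induced by ATF4, was at 8.77, 10.1 and 9.45 CPM in LM9 and 128, 133 and 134 CPM in the KO-labelled libraries (3.81 ± 0.07, SE). Asns, asparagine synthetase and also an ATF4 target, was at 36.8, 95.1 and 91 CPM in LM9 and 256, 252 and 255 CPM in the KO-labelled libraries. Ppp1r15a, a phosphatase subunit that ends the stress block of translation, was at 68.6, 268 and 261 CPM in LM9 and 70.7, 69.6 and 67.4 CPM in the KO-labelled libraries, so that replicate 1 alone lay at the level of the other group, and its fold change went from -1.28 with replicate 1 to -1.93 without it. Ddit3 and Sel1l passed only without replicate 1, the former with a fold change of -0.17 and the latter with 0.18. In the annotation 2 identifiers carry the symbol Ddit3, and the values are those of 1 of them.

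Vegfa (ENSMUSG00000023951; chr17:46016993-46032369, minus strand, mm10) was at 532, 911 and 873 CPM in LM9 and 74, 74.2 and 75.1 CPM in the KO-labelled libraries, without overlap and with replicate 1 the lowest LM9 library. The log2 fold change was -3.33 ± 0.16 (SE, adjusted p = 3.74e-09) and -3.58 ± 0.03 (SE, adjusted p = 1.26e-21) without replicate 1. Of 13 VEGF and angiopoietin ligands and receptors, 8 fell, 3 rose and 2 did not pass, the same with and without replicate 1, with a median of -2.03 (-2.16). Among the ligands, Angpt1, an agonist of the TIE2 receptor, was at 29.1, 5.08 and 6.3 CPM in LM9 and 0.467, 0.219 and 0.442 CPM in the KO-labelled libraries, and Angpt2, its partial antagonist, was at 11.1, 3.99 and 4.76 CPM in LM9 and 0.233, 0.414 and 0.312 CPM in the KO-labelled libraries. Both were highest in replicate 1 and low in all libraries of the other group. Another angiopoietin, Angpt4, was much higher in the KO-labelled libraries, as given below, so the angiopoietins did not share a direction. Among the receptors, Kdr, the main signalling receptor of VEGFA, rose. It had 1 count over the LM9 libraries and 284, 289 and 279 CPM in the KO-labelled libraries, and was 22674-fold higher (95% counting interval 4069 to 895613). The coreceptor Nrp1 was at 9.04, 0.484 and 1.02 CPM in LM9 and 48.1, 44.7 and 45.2 CPM in the KO-labelled libraries, a rise of 4.68 ± 0.59 (SE) that grew to 5.98 without replicate 1. Levels are not compared between genes here, because CPM is not corrected for length.

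Hif1a (ENSMUSG00000021109; chr12:73901375-73947530, plus strand, mm10), the oxygen-regulated subunit of the hypoxia-inducible factor, was at 546, 430.0 and 430.0 CPM in LM9 and 169, 189 and 178 CPM in the KO-labelled libraries. No library overlapped, and the log2 fold change was -1.38 ± 0.09 (SE, adjusted p = 6.78e-08) with and -1.27 ± 0.05 (SE, adjusted p = 2.18e-13) without replicate 1. Its partner Arnt fell from 164, 138 and 142 CPM to 54.1, 52 and 54.2 CPM, and Vhl, the ubiquitin ligase subunit that removes HIF in oxygen, fell from 70.3, 98.7 and 98.4 CPM to 31.3, 30.5 and 31.1 CPM. In contrast Epas1, the alternative subunit HIF-2 alpha, was at 0.236, 0.201 and 0.236 CPM in LM9 and 15.1, 15.4 and 14.6 CPM in the KO-labelled libraries, and Arnt2, the paralogue of Arnt, was at 1.86, 0.524 and 0.59 CPM in LM9 and 92.4, 94.3 and 96.2 CPM in the KO-labelled libraries. All 9 genes for HIF subunits and oxygen sensors passed, 5 with a fall and 4 with a rise.

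Among 23 genes of the hypoxia response outside glycolysis, 14 fell, 6 rose and 3 did not pass (15, 6 and 2 without replicate 1), with a median of -1.40 (-1.38). Of the 19 measured in both groups, 4 rose and 12 fell (4 and 13 without replicate 1), with a median of -1.40 (-1.38). The falls included Adm, the vasodilator peptide adrenomedullin, at 23.8, 45.7 and 40.5 CPM in LM9 and 0, 0.073 and 0.026 CPM in the KO-labelled libraries, and Car9, a carbonic anhydrase of the cell surface, at 17.1, 10.2 and 10.5 CPM in LM9 and 0.181, 0.268 and 0.338 CPM in the KO-labelled libraries. Ddit4, an inhibitor of mTORC1, was at 319, 1042 and 1033 CPM in LM9 and 47.7, 48.9 and 49.3 CPM in the KO-labelled libraries, with replicate 1 at the lowest LM9 level. Against these stood Hmox1, haem oxygenase, at 25.9, 33.9 and 34.2 CPM in LM9 and 1153, 1137 and 1169 CPM in the KO-labelled libraries, a rise of 5.22 ± 0.09 (SE, adjusted p = 4.85e-12). Stc2, a secreted glycoprotein, had 1 count in LM9 and was at 18.9, 20.1 and 19.4 CPM, and Vldlr, a lipoprotein receptor, had 1 count and was at 40.1, 38.1 and 42.1 CPM. Bhlhe40, a repressor of the clock that hypoxia induces, was at 233, 538 and 545 CPM in LM9 and 299.5, 303 and 303 CPM in the KO-labelled libraries, so that replicate 1 lay below and replicates 2 and 3 above the other group. It passed only without replicate 1 (-0.44 with it, -0.84 without).

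Glycolysis and lactate export held 25 genes, of which 15 fell, 6 rose and 4 did not pass (17, 7 and 1 without replicate 1), with a median of -0.77 (-0.55). With total counts 9 rose and 12 fell (10 and 13 without replicate 1). Aldoc, an aldolase isoenzyme, was at 226, 183 and 177 CPM in LM9 and 2.72, 1.9 and 2.08 CPM in the KO-labelled libraries, with a log2 fold change of -6.45 ± 0.17 (SE, adjusted p = 3.16e-11). Ldhb, the lactate dehydrogenase subunit of oxidative tissues, had 514 counts in LM9 and 1 in the other group. Slc16a3, the lactate exporter MCT4, had none in LM9 and was at 78, 78.6 and 79.3 CPM in the KO-labelled libraries (at least 650.4-fold higher). Pfkfb4, which sets the level of the activator of phosphofructokinase, rose from 55.9, 46.7 and 47.7 CPM to 98.1, 95.1 and 96.8 CPM. Hk2, the inducible hexokinase, was at 301, 105 and 119 CPM in LM9 and 89.1, 92.2 and 92.7 CPM in the KO-labelled libraries, and its fold change of -0.77 with replicate 1 was -0.29 without it. That remainder turned to 0.13 with total counts. Pgk1 and Pkm, enzymes of the ATP-yielding steps, passed only without replicate 1, with fold changes of -0.38 and -0.42 in place of -0.17 and -0.17. In both, replicate 1 lay below the KO-labelled libraries while replicates 2 and 3 lay above them.

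Of 22 genes of the tricarboxylic acid cycle, 11 rose, 7 fell and 4 did not pass (11, 9 and 2 without replicate 1), with a median of 0.30 (0.19). With total counts 16 rose and 4 fell (16 and 4 without replicate 1). Pcx, pyruvate carboxylase, which refills the cycle with oxaloacetate, was at 3.44, 2.06 and 3.07 CPM in LM9 and 104, 103 and 103 CPM in the KO-labelled libraries (5.19 ± 0.15, SE), and Idh3a, a subunit of the NAD-dependent isocitrate dehydrogenase, rose from 30.5, 35.3 and 31.1 CPM to 91, 98.6 and 93.6 CPM. Sdhc, a membrane anchor of succinate dehydrogenase, fell from 156, 149 and 155 CPM to 51.8, 49.9 and 50.7 CPM and Idh2, the mitochondrial NADP-dependent enzyme, from 129, 79 and 78.8 CPM to 33.9, 32.9 and 32.6 CPM. Idh3g and Dlst passed only without replicate 1.

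The nuclear genes of the respiratory chain and ATP synthase had the largest share of calls that depended on replicate 1 among the lists. Of 31 tested, 13 rose, 7 fell and 11 did not pass with 3 LM9 libraries. Without replicate 1, 15 rose, 16 fell and all passed, and the median went from 0.04 to -0.17. These counts depended on the scaling. With total counts 20 rose and 5 fell (20 and 6 without replicate 1). The call of 11 of the 31 genes depended on that library, against 9.42% of all genes. LM9 replicate 1 was below the mean of replicates 2 and 3 in 30 of 31 genes, with a median difference of -0.36 on the log2 scale, against a median of 0 over all genes. Cox5b, a subunit of cytochrome c oxidase, was at 14, 27.7 and 23.9 CPM in LM9 and 19.1, 21.1 and 22.6 CPM in the KO-labelled libraries, so that replicate 1 was the lowest and replicates 2 and 3 the highest of the 6 libraries. Its fold change was 0.01 ± 0.21 (SE, adjusted p = 0.976) with replicate 1 and -0.30 ± 0.10 (SE, adjusted p = 0.0107) without it. Ndufb8 of complex I was at 60.1, 98.1 and 91.7 CPM in LM9 and 85.6, 81.4 and 76.8 CPM in the KO-labelled libraries, with fold changes of 0.00 and -0.22. Uqcrc1 of complex III was at 156, 207 and 196 CPM in LM9 and 164, 161 and 163 CPM in the KO-labelled libraries, with -0.19 and -0.31. The same order of libraries was seen in each. Members at the ends of the list did not depend on the choice: Cyc1, cytochrome c1, was at 66.6, 72.4 and 67.5 CPM in LM9 and 238, 240.2 and 241 CPM in the KO-labelled libraries, Ndufa9 of complex I at 25.6, 28.6 and 30.3 CPM in LM9 and 72.3, 70.2 and 73.4 CPM in the KO-labelled libraries, and the ATP synthase subunit Atp5c1 at 303, 367 and 361 CPM in LM9 and 173, 158 and 157 CPM in the KO-labelled libraries. With total counts the median without replicate 1 turned to 0.25, but relative to the median of all genes it was -0.33 under either scaling, and -0.09 to -0.10 with 3 LM9 libraries.

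The difference between replicate 1 and replicates 2 and 3 moved with the exon length of the gene. Among 11121 genes with at least 10 CPM, sorted by length into 5 classes of equal size, the class with the shortest exon unions (61 to 2082 bases) had a median difference of -0.44 on the log2 scale, with replicate 1 below in 80.7% of genes. The class with the longest (7559 to 123179 bases) had a median of 0.37, with replicate 1 below in 24.6%. LM1 differed from LM9 replicates 2 and 3 in the same order, from -0.46 to 0.40. The comparison with the KO-labelled libraries changed with it: in the shortest class the median fold change was -0.47 with 3 LM9 libraries and -0.62 without replicate 1, and in the longest it was 0.17 and 0.31. The share of genes whose call depended on replicate 1 was 8.45% in the shortest class and 11.2% in the longest. The respiratory chain genes had a median exon length of 1972 bases, and the TGF-beta and BMP genes had one of 5542 bases. The part of length in these results was not tested.

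**Figure D4:**
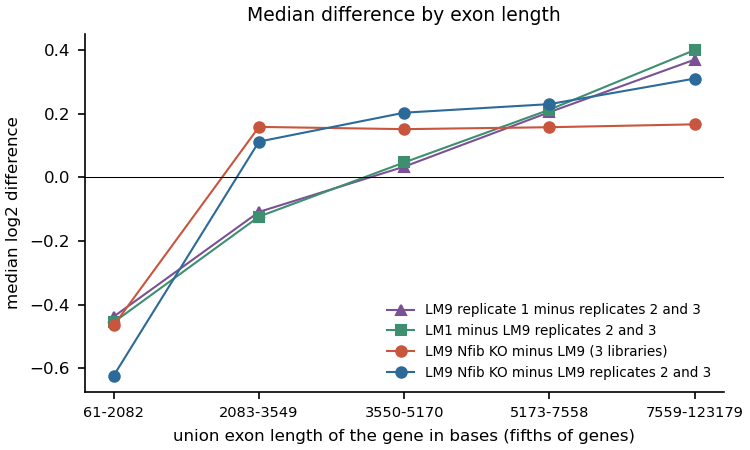
Median log2 difference of 11121 genes (at least 10 CPM) in 5 classes of exon length, the x axis giving the bases in each class. The differences of LM9 replicate 1 (triangles) and of LM1 (squares) from LM9 replicates 2 and 3 rise with length from -0.44 and -0.46 to 0.37 and 0.40, and the fold change of the KO-labelled libraries (circles) is lowest in the shortest class.

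Cholesterol synthesis held 22 genes, of which 10 fell, 6 rose and 6 did not pass (13, 6 and 3 without replicate 1). The median was -0.20 (-0.40), and with total counts it turned to 0.15 (0.02). With total counts 9 rose and 10 fell (10 and 10 without replicate 1). Insig1, which holds the SREBP precursor in the endoplasmic reticulum, was at 210.3, 226 and 221 CPM in LM9 and 24.3, 23.5 and 23.5 CPM in the KO-labelled libraries, with a log2 fold change of -3.20 ± 0.05 (SE, adjusted p = 3.9e-12). Pmvk, phosphomevalonate kinase, fell from 51.8, 56 and 55.9 CPM to 8.82, 8.9 and 8.45 CPM. Hsd17b7, a late enzyme of the route, rose from 4.42, 9.03 and 10 CPM to 58.9, 63.4 and 63.4 CPM, and Ebp, the sterol isomerase, rose from 19, 24.6 and 25.4 CPM to 67.1, 66.8 and 65.6 CPM. Sqle, squalene epoxidase, was at 156, 276 and 282 CPM in LM9 and 229.9, 227 and 225 CPM in the KO-labelled libraries. It passed only without replicate 1 (-0.30 in place of -0.02), as did Mvd and Cyp51, and in each of the 3 genes replicate 1 was the lowest library. The demethylating dehydrogenase Nsdhl moved most, at 12.5, 28 and 28.3 CPM in LM9 and 35.7, 34.6 and 34.3 CPM in the KO-labelled libraries, from 0.72 with to 0.31 without that library.

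Fatty acid synthesis held 16 genes, of which 7 fell, 3 rose and 6 did not pass (9, 3 and 4 without replicate 1), with a median of -0.18 that turned to 0.18 with total counts. With total counts 7 rose and 6 fell (9 and 7 without replicate 1). Acly, which makes cytosolic acetyl-CoA, rose from 119.7, 112 and 115 CPM to 300.3, 297 and 300.3 CPM. Elovl1, an elongase of very long chains, rose from 37.4, 85.3 and 77.1 CPM to 166, 160.4 and 168 CPM. Acss2, which makes acetyl-CoA from acetate, fell from 98.7, 68.5 and 62.5 CPM to 16, 14 and 14.6 CPM. Acsl3, an acyl-CoA synthetase of lipid droplets, fell from 172, 221 and 236 CPM to 37.2, 36 and 39 CPM. Elovl6, an elongase of saturated fatty acids, was at 142, 43.1 and 43.8 CPM in LM9 and 25.5, 26.6 and 27 CPM in the KO-labelled libraries. It was highest in replicate 1, and its fold change of -1.30 became -0.72 without that library.

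Serine, glycine and one-carbon metabolism, which supplies methyl groups and nucleotide precursors, had mostly rises. Of 14 genes 13 rose and 1 fell, with and without replicate 1, and the median fold change was 2.95 (2.94) against 0.13 (0.16) over all genes. Aldh1l2, a mitochondrial enzyme of the folate cycle, was at 9.38, 10 and 9.29 CPM in LM9 and 254, 249.7 and 258 CPM in the KO-labelled libraries, a rise of 4.73 ± 0.08 (SE, adjusted p = 3.9e-12). Cth, which makes cysteine from cystathionine, was at 0.843, 0.806 and 0.433 CPM in LM9 and 26.7, 27.8 and 28.6 CPM in the KO-labelled libraries. No library overlapped in either gene.

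Of 26 genes of the NRF2 response and glutathione metabolism, which protect against oxidants, 13 rose, 10 fell and 3 did not pass (16, 10 and 0 without replicate 1), with a median of 0.39 (0.42). With total counts 17 rose and 8 fell (17 and 8 without replicate 1). Srxn1, sulfiredoxin, was at 87.2, 41.9 and 42.7 CPM in LM9 and 581, 566 and 572 CPM in the KO-labelled libraries. Tkt, transketolase of the pentose phosphate pathway, was at 1009.9, 1187 and 1198 CPM in LM9 and 104, 99.5 and 99.7 CPM in the KO-labelled libraries, and Gsta4, a glutathione transferase, was at 45.5, 38 and 36 CPM in LM9 and 0.0519, 0.0486 and 0 CPM in the KO-labelled libraries. Keap1, the adaptor that marks NRF2 for degradation, was at 62.7, 22.8 and 24.7 CPM in LM9 and 46.7, 49.3 and 48.4 CPM in the KO-labelled libraries. Its replicate 1 lay above and its replicates 2 and 3 below the other group, and it passed only without replicate 1 (1.02 in place of 0.53). Slc7a11 and Gclm, the cystine transporter and a subunit of glutathione synthesis, also passed only without replicate 1.

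Cell cycle genes moved in both directions. Of 30 genes of DNA replication and mitosis, 18 rose, 11 fell and 1 did not pass (17, 12 and 1 without replicate 1), with a median of 0.60 (0.36). With total counts 19 rose and 8 fell (20 and 8 without replicate 1). Rrm2, the regulated subunit of ribonucleotide reductase, was at 33.7, 27.2 and 28.4 CPM in LM9 and 174, 170.0 and 178 CPM in the KO-labelled libraries, and Ccne2, an S-phase cyclin, rose from 3.2, 5.68 and 6.77 CPM to 20.7, 24.3 and 21 CPM. Top2a, the topoisomerase of dividing cells, fell from 1568, 1764 and 1885 CPM to 421, 402 and 399.6 CPM and Ccnb2, a mitotic cyclin, from 54.1, 52.3 and 54.9 CPM to 14.5, 14.9 and 13.9 CPM. Ccne1, another S-phase cyclin, was at 9.82, 24 and 23.3 CPM in LM9 and 25.2, 26.3 and 26.7 CPM in the KO-labelled libraries. It passed only with replicate 1, its lowest library, and Birc5, survivin, passed only without that library (-0.33 in place of -0.13).

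Among 23 p53 targets and inhibitors of cyclin-dependent kinases, 11 rose, 11 fell and 1 did not pass in both comparisons. The median was -0.46 (-0.12, and 0.30 with total counts without replicate 1), so the direction of the list depended on the scaling in the comparison with replicates 2 and 3. With total counts 11 rose and 7 fell (13 and 8 without replicate 1). Of the 19 measured in both groups, 7 rose and 11 fell (7 and 11 without replicate 1), with a median of -0.52 (-0.42). Cdkn2a, which encodes the inhibitors p16INK4a and p19ARF, had 2 counts in LM9 and was at 36.9, 39.7 and 38.4 CPM in the KO-labelled libraries, 1532-fold higher (95% counting interval 424 to 12655). Pmaip1, the apoptosis activator NOXA, had none in LM9 and was at least 138-fold higher, and Gdf15, a stress cytokine, had 3 and was at 7.03, 7.88 and 7.85 CPM. Trp53inp1, a p53-induced regulator of autophagy, was at 62, 39.4 and 35.7 CPM in LM9 and 3.16, 3.94 and 3.74 CPM in the KO-labelled libraries, and Cdkn2d, the inhibitor p19INK4d, at 110.3, 146 and 147 CPM in LM9 and 10.6, 10.5 and 11.8 CPM in the KO-labelled libraries. In the list of 12 genes of cyclin D, Myc and their partners, 3 rose, 6 fell and 3 did not pass (5, 7 and 0 without replicate 1), with a median of -0.18 (-0.28) that turned to 0.17 (0.14) with total counts. With total counts 5 rose and 5 fell (6 and 5 without replicate 1). Ccnd2, a D-type cyclin, was at 1.05, 2.14 and 2.4 CPM in LM9 and 147, 155 and 156 CPM in the KO-labelled libraries, and Cdk4, its kinase, rose from 165, 165 and 169.7 CPM to 383, 366 and 372 CPM. Of the Myc antagonists, Mxd1 was at 31.8, 27.6 and 30.1 CPM in LM9 and 5.99, 6.08 and 5.95 CPM in the KO-labelled libraries, and Mxd4 fell from 95.7, 72.7 and 71.8 CPM to 20, 22.5 and 22.8 CPM. Mycl, Cdk6 and Max passed only without replicate 1.

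Signalling lists differed in their direction. Among 27 genes of the EGF family and FGF signalling, 13 fell, 8 rose and 6 did not pass (14, 10 and 3 without replicate 1), with a median of -0.38 (-0.39, turning to 0.03 with total counts). With total counts 12 rose and 11 fell (12 and 13 without replicate 1). Of the 21 measured in both groups, 4 rose and 12 fell (5 and 13 without replicate 1), with a median of -1.03 (-1.29). The ligand Tgfa was at 38.9, 37.3 and 39.1 CPM in LM9 and 0.0519, 0.0243 and 0.026 CPM in the KO-labelled libraries, and Etv1, a transcription factor downstream of the receptors, was at 54.2, 32.5 and 35.7 CPM in LM9 and 0.156, 0.268 and 0.312 CPM in the KO-labelled libraries. The receptor Erbb2 was at 20.3, 4.55 and 4.76 CPM in LM9 and 36, 34.4 and 38.5 CPM in the KO-labelled libraries, a rise from 2.20 with replicate 1 to 2.95 without it, and the ligand Fgf2 was at 0.0675, 0.121 and 0.197 CPM in LM9 and 7.99, 8.98 and 8.71 CPM in the KO-labelled libraries. Fgf21, a secreted metabolic hormone of the family, rose from 0.0675, 0.121 and 0.0787 CPM to 6.77, 6.69 and 6.97 CPM. Areg, the ligand amphiregulin, was at 5.73, 24.3 and 23.5 CPM in LM9 and 9.88, 9.73 and 9.56 CPM in the KO-labelled libraries. Its replicate 1 was the lowest of all 6 libraries, and it passed only without that library (-1.29 in place of -0.57).

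Among 20 other receptor tyrosine kinases and ligands, 9 fell, 7 rose and 4 did not pass (9, 9 and 2 without replicate 1), and the median went from -0.23 to 0.12 (0.13 and 0.54 with total counts). With total counts 8 rose and 7 fell (12 and 7 without replicate 1). The ligand Pdgfb was at 30.7, 45.6 and 45 CPM in LM9 and 1.09, 1.26 and 1.9 CPM in the KO-labelled libraries and its receptor Pdgfrb at 1.25, 0.0403 and 0.118 CPM in LM9 and 117, 109.9 and 116 CPM in the KO-labelled libraries. Igf1r, the insulin-like growth factor receptor, was at 192, 131 and 149 CPM in LM9 and 13.6, 13.4 and 13.7 CPM in the KO-labelled libraries, and Kit, the receptor of stem cell factor, had no count in LM9 and was at 7.29, 7.15 and 7.69 CPM. Its ligand Kitl was at 161, 83.4 and 87.3 CPM in LM9 and 114, 141 and 139 CPM in the KO-labelled libraries. Replicate 1 of Kitl was the highest library, and the gene passed only without it (0.62 in place of 0.31), like the ephrin receptor Ephb4.

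TGF-beta and BMP signalling, which restrains epithelial growth and patterns tissues, also shifted with replicate 1. Of 29 genes, 11 rose, 12 fell and 6 did not pass with 3 LM9 libraries (median -0.07, and 0.29 with total counts). Without replicate 1, 16 rose, 13 fell and all passed (median 0.21, and 0.63 with total counts). With total counts 13 rose and 9 fell (16 and 11 without replicate 1). Of the 26 measured in both groups, 8 rose and 12 fell (13 and 13 without replicate 1), with a median of -0.34 (-0.13). Relative to the median of all genes, that of the list was -0.20 with replicate 1 and 0.05 without. Among the ligands, Bmp2 had 1 count in LM9 and was at 17.3, 18.7 and 17.5 CPM, Inhbb, an activin subunit, was at 5.36, 0 and 0.59 CPM in LM9 and 42.6, 48 and 46.2 CPM in the KO-labelled libraries, and Tgfb3 was at 84.5, 27.8 and 27.8 CPM in LM9 and 55.6, 56 and 54 CPM in the KO-labelled libraries. Tgfb3 was highest in replicate 1, and it passed only without that library (0.99 in place of 0.43). Grem1, a secreted BMP antagonist, had no count in LM9 and was at least 215-fold higher. Ltbp2, a matrix protein of the TGF-beta binding family, was at 1016, 759 and 861 CPM in LM9 and 2.64, 2.19 and 1.95 CPM in the KO-labelled libraries. Among receptors, Bmpr1a was at 152, 73.1 and 83.6 CPM in LM9 and 91, 96.1 and 94.2 CPM in the KO-labelled libraries, so that replicate 1 lay above and the others below the KO-labelled libraries (-0.07 with and 0.26 without it). Acvr2a and Acvr1, both activin-type receptors, had the same order of libraries, at 49.5, 14.6 and 15.9 CPM and 62.7, 42.8 and 43.6 CPM in LM9 against 16.9, 19.4 and 18.7 CPM and 49.5, 49.2 and 50.9 CPM. Of the transducers, Smad3 fell from 319, 225 and 258 CPM to 23.5, 22.6 and 21.5 CPM. The inhibitor Smad7 was at 35.7, 79.8 and 76.7 CPM in LM9 and 44.8, 48.1 and 47.2 CPM in the KO-labelled libraries, passing only without replicate 1.

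Of 31 Wnt ligands, receptors, inhibitors and targets tested, 21 rose, 8 fell and 2 did not pass in both comparisons, with a median of 2.01 (2.03), beside 44.3% of all genes that rose and a median of 0.13. Of these members 12 were below the minimum of the filter in every LM9 library. Of the 19 measured in both groups, 9 rose and 8 fell (9 and 8 without replicate 1), with a median of 0.19 (0.07). The share of rises among them lay near that of all genes measured in both groups. Axin2, a feedback inhibitor that the pathway induces, was at 0.236, 0 and 0 CPM in LM9 and 280.3, 281 and 279 CPM in the KO-labelled libraries. It had 7 counts in replicate 1 and none in replicates 2 and 3, and was at least 2316-fold higher than in the latter. Wnt5a, a ligand of the non-canonical branch, had no count in LM9 and was at least 527-fold higher. Sfrp1, a secreted Wnt antagonist, was at 95.5, 51.7 and 52.7 CPM in LM9 and 0.311, 0.0973 and 0.182 CPM in the KO-labelled libraries, with a log2 fold change of -8.41 ± 0.63 (SE, adjusted p = 1.72e-07), and the coreceptor Lrp5 fell from 316, 331 and 349.5 CPM to 38.8, 40 and 42.3 CPM. In 6 members a group had no count (8 without replicate 1), and with these set at their lower bounds the median over all members tested was 2.01 (2.02).

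Notch signalling, which works by contact between neighbouring cells, had falls of all 4 ligands tested, Jag1, Jag2, Dll1 and Dll4. Of 17 genes 10 fell, 5 rose and 2 did not pass (10, 6 and 1 without replicate 1), with a median of -1.87 (-1.93). Of the 12 measured in both groups, 4 rose and 6 fell (5 and 6 without replicate 1), with a median of -0.76 (-0.83). The ligand Jag2 was at 44.1, 42.9 and 39.4 CPM in LM9 and 0.104, 0.0973 and 0.104 CPM in the KO-labelled libraries and the ligand Dll4 at 11.8, 4.59 and 4.45 CPM in LM9 and 0.0519, 0 and 0.026 CPM in the KO-labelled libraries. Among the receptors, Notch1 fell, at 286, 226 and 279 CPM in LM9 and 12.8, 12.3 and 12.8 CPM in the KO-labelled libraries. Notch2 was at 227, 31.8 and 42.1 CPM in LM9 and 284, 278 and 285 CPM in the KO-labelled libraries, so that replicate 1 was near the other group and replicates 2 and 3 far below it. The rise was 2.05 ± 0.51 (SE, adjusted p = 0.00308) with 3 LM9 libraries and 2.95 ± 0.08 (SE, adjusted p = 1.15e-15) with 2. Notch3 was at 36, 3.59 and 3.42 CPM in LM9 and 56.7, 59.9 and 61 CPM in the KO-labelled libraries and had the same order (2.87 and 4.07). The coactivator Maml2 passed only without replicate 1.

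Of 19 targets and regulators of YAP and TEAD, the effectors of the Hippo pathway, 15 fell, 2 rose and 2 did not pass (15, 3 and 1 without replicate 1), with a median of -1.23 (-1.09) beside 38.0% of all genes that fell. With total counts 3 rose and 12 fell (6 and 12 without replicate 1). Tead2, a DNA-binding partner of YAP, was at 149.8, 171 and 165 CPM in LM9 and 3.81, 4.55 and 4.26 CPM in the KO-labelled libraries, and Nt5e, the ectonucleotidase CD73, was at 250.5, 261 and 273 CPM in LM9 and 7.13, 6.93 and 6.86 CPM in the KO-labelled libraries. Ccn2, connective tissue growth factor, was at 45, 18 and 17.6 CPM in LM9 and 21.3, 20.9 and 21.2 CPM in the KO-labelled libraries. Replicate 1 was the highest library, and the fold change went from -0.22 ± 0.28 (SE, adjusted p = 0.471) with it to 0.25 ± 0.07 (SE, adjusted p = 0.0045) without it. The adaptor Ajuba rose from 51.6, 24.4 and 27.7 CPM to 59.4, 56 and 58 CPM. Lats1, a kinase that inhibits YAP, was at 103, 68.5 and 67.9 CPM in LM9 and 92.2, 99.4 and 102 CPM in the KO-labelled libraries, a small rise (0.31 with and 0.52 without replicate 1) in which replicate 1 was the highest library.

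In the list of 19 AP-1 and immediate early genes, 10 fell, 4 rose and 5 did not pass (11, 4 and 4 without replicate 1). LM9 replicate 1 was below replicates 2 and 3 in 14 of them, with a median difference of -0.98 on the log2 scale. Junb was at 105, 489 and 452 CPM in LM9 and 63.2, 68 and 69.8 CPM in the KO-labelled libraries, so that replicate 1 stood between the others and the KO-labelled libraries, and its fold change was -2.09 with and -2.81 without that library. Fos was at 22.7, 49 and 49.4 CPM in LM9 and 5.65, 6.32 and 5.8 CPM in the KO-labelled libraries. Batf3, a leucine zipper factor of the AP-1 family, fell from 4.92, 8.54 and 8.97 CPM to 0.959, 1.02 and 1.12 CPM. Fosl1, the AP-1 subunit FRA-1, rose, at 29.6, 62.1 and 63.9 CPM in LM9 and 254, 249 and 249.9 CPM in the KO-labelled libraries, and Egr1, an early growth response factor, was at 3.88, 2.7 and 2.56 CPM in LM9 and 49.1, 49.5 and 51.2 CPM in the KO-labelled libraries. Atf3 passed only without replicate 1 (-0.69 in place of -0.26).

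Of 24 genes of cell adhesion and junctions, 20 fell and 4 rose with and without replicate 1, and the median was -7.87 (-8.21), or -7.73 (-7.95) with the genes at 0 counts set at their lower bounds. Of the 11 measured in both groups, 3 rose and 8 fell (3 and 8 without replicate 1), with a median of -2.88 (-3.08). Cldn3 and Cldn4 are tight-junction claudins. Cldn3 was at 34.7, 135 and 122 CPM in LM9 and had no count in the other group (at least 1250.4-fold lower), and Cldn4 was at 28.7, 152 and 152 CPM and had 1 count there. Both were several times lower in replicate 1 than in replicates 2 and 3. Against these, the desmosomal genes Dsp, at 38.7, 66.5 and 81.6 CPM in LM9 and 243, 243 and 240.5 CPM in the KO-labelled libraries, and Pkp1, with 1 count in LM9 and 38.3, 38 and 38.8 CPM in the other group, rose.

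Of 14 epithelial transcription factors, 11 fell, 2 rose and 1 did not pass, with a median of -3.47 (-2.99), or -3.35 with the genes at 0 counts set at their bounds in the first value. Of the 9 measured in both groups, 2 rose and 6 fell (2 and 6 without replicate 1), with a median of -1.49 (-1.15). The ETS factors Ehf and Elf3 fell, from 214, 179 and 189 CPM to 0.104, 0.219 and 0.13 CPM and from 26.8, 28.9 and 26.6 CPM to 0.181, 0.243 and 0.156 CPM. Grhl3, a grainyhead factor of epidermal barrier formation, rose, at 0.0337, 0.242 and 0.551 CPM in LM9 and 59.7, 60.6 and 59.4 CPM in the KO-labelled libraries. Trp63, the p63 factor of basal cells, was at 17.9, 0.0403 and 0.276 CPM in LM9 and 0.337, 0.316 and 0.156 CPM in the KO-labelled libraries. It exceeded 1 CPM in replicate 1 only, and it passed in neither comparison. Of 10 keratins 4 fell and 6 rose, and their sum went from 737 CPM in LM9 replicate 1 and 1273 and 1223 CPM in the others to 35.7 to 36.9 CPM. Of the 4 measured in both groups, 2 rose and 2 fell (2 and 2 without replicate 1). Krt8, the partner of Krt18, was at 220.1, 415 and 406 CPM in LM9 and 0.0778, 0.0973 and 0.078 CPM in the KO-labelled libraries, and Krt19 was at 9.24, 46 and 45.3 CPM in LM9 and 0.311, 0.341 and 0.338 CPM in the KO-labelled libraries. Krt14 of basal cells was at 0.0337, 0.322 and 0.0787 CPM in LM9 and 6.79, 6.57 and 6.16 CPM in the KO-labelled libraries, and Krt80 at 1.75, 0.967 and 0.708 CPM in LM9 and 17.8, 16.8 and 18.5 CPM in the KO-labelled libraries. Krt16, a stress keratin, moved most with the choice, at 0.506, 3.59 and 3.54 CPM in LM9 and 5.26, 5.38 and 5.69 CPM in the KO-labelled libraries, with a log2 fold change of 1.60 with and 0.61 without replicate 1.

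Mesenchymal genes and factors of epithelial-mesenchymal transition rose in 13 of 20 cases, fell in 4 and did not pass in 3 (14, 6 and 0 without replicate 1). Their median was 1.87 (2.90), or 1.36 (1.42) with the genes at 0 counts set at their lower bounds. Of the 20, 8 were below the minimum of the filter in every LM9 library. Of the 11 measured in both groups, 5 rose and 3 fell (6 and 5 without replicate 1), with a median of 0.18 (0.68). Zeb1, a repressor of epithelial genes, had 2 counts in LM9 and was at 137, 135 and 135 CPM in the KO-labelled libraries, 5404-fold higher (95% counting interval 1496 to 44628). Prrx1, a homeobox factor of mesenchyme, had none and was at least 1425-fold higher, and Snai2 had none and was at least 90.9-fold higher. Zeb1 and Prrx1 each overlap another gene in the annotation. Fn1, fibronectin, went the other way, at 11634, 8409 and 10827 CPM in LM9 and 197, 186 and 194 CPM in the KO-labelled libraries, with a log2 fold change of -5.73 ± 0.10 (SE, adjusted p = 4.64e-12), and Tpm2, a tropomyosin, was at 6.41, 11.1 and 9.09 CPM in LM9 and 0.415, 0.195 and 0.052 CPM in the KO-labelled libraries. Vim, vimentin, was at 3179, 5543 and 5468 CPM in LM9 and 5270.3, 5158 and 5196 CPM in the KO-labelled libraries. Replicate 1 was the lowest library, and the fold change was 0.18 with and -0.08 without it. Postn, periostin, was at 197, 0.282 and 0.157 CPM in LM9 and 2.07, 1.63 and 2.39 CPM in the KO-labelled libraries. It was present in replicate 1 and near the detection floor in replicates 2 and 3, and the fold change was -0.36 ± 1.91 (SE, adjusted p = 0.867) with that library and 3.12 ± 0.48 (SE, adjusted p = 1.18e-05) without it, so that its sign changed.

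Among collagens 15 of 24 rose, 8 fell and 1 did not pass (16, 8 and 0 without replicate 1), with a median of 4.10 (3.67), or 3.20 (2.73) with bounds for genes at 0. Of the 13 measured in both groups, 7 rose and 5 fell (8 and 5 without replicate 1), with a median of 1.18 (1.33). The basement membrane chains Col4a1 and Col4a2, which lie head to head and overlap in the annotation, were at 900.1, 816 and 871 CPM in LM9 and 0.0519, 0.0973 and 0.13 CPM in the KO-labelled libraries and at 574, 438 and 458 CPM in LM9 and 0.104, 0.268 and 0.286 CPM in the KO-labelled libraries, respectively. Among the rises were Col6a3, a microfibrillar chain, at 0.607, 0.201 and 0.118 CPM in LM9 and 603, 580.0 and 591 CPM in the KO-labelled libraries, Col5a3 at 2.39, 16.1 and 17 CPM in LM9 and 135, 133 and 133 CPM in the KO-labelled libraries and Col3a1 at 0.0337, 0 and 0 CPM in LM9 and 20.5, 20.6 and 21 CPM in the KO-labelled libraries. Col6a1 passed only without replicate 1, which was its highest library, at 742, 352 and 364 CPM in LM9 against 513, 487 and 501 CPM. Laminins and other basement membrane genes fell in 11 of 13 cases (median -2.48 and -2.54). With total counts 2 rose and 10 fell (3 and 10 without replicate 1). Lama5 was at 2381, 2746 and 3421 CPM in LM9 and 56.7, 55.3 and 60.6 CPM in the KO-labelled libraries, and Lama4 at 135, 314 and 339 CPM in LM9 and 2.07, 1.92 and 1.92 CPM in the KO-labelled libraries. Lama3 rose, at 1.65, 17.3 and 18.4 CPM in LM9 and 46, 44.1 and 43 CPM in the KO-labelled libraries, with a log2 fold change of 2.53 that was 1.31 without replicate 1.

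Integrins, the receptors of that matrix, fell in 9 of 17 cases and rose in 7 (10 and 7 without replicate 1). The laminin receptor chains Itga3 and Itgb4 fell, from 1105, 1275 and 1369.7 CPM to 31, 31 and 29.6 CPM and from 46.9, 61.5 and 57.5 CPM to 0.648, 0.681 and 0.702 CPM. The common beta chain Itgb1 was at 415, 448 and 462 CPM in LM9 and 2555, 2501 and 2511 CPM in the KO-labelled libraries, a rise of 2.52 ± 0.06 (SE, adjusted p = 1.31e-11). Itgb6, the chain of the epithelial fibronectin receptor, rose from 0.304, 0.524 and 1.26 CPM to 7.8, 7.32 and 7.1 CPM. Itgb7, a leukocyte integrin chain, was at 4.39, 45.6 and 46.8 CPM in LM9 and 14.9, 15.2 and 15.8 CPM in the KO-labelled libraries. Replicate 1 was the lowest and replicates 2 and 3 the highest libraries, and the fold change went from -0.40 ± 0.69 (SE, adjusted p = 0.597) to -1.59 ± 0.06 (SE, adjusted p = 2.19e-14) without replicate 1.

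Of 32 matrix proteases and inhibitors 16 rose, 14 fell and 2 did not pass (18, 14 and 0 without replicate 1). With total counts 18 rose and 9 fell (20 and 10 without replicate 1). Of the 27 measured in both groups, 12 rose and 13 fell (14 and 13 without replicate 1), with a median of 0.03 (0.18). Mmp9, a gelatinase, was at 626, 1757 and 1819 CPM in LM9 and 3.53, 3.89 and 3.2 CPM in the KO-labelled libraries. Timp3, an inhibitor of metalloproteases, had 1 count in LM9 and 114, 109 and 115 CPM in the other group, and Adam12, a metalloprotease of mesenchymal cells, had none and was at least 119-fold higher. Mmp2, the other gelatinase, was at 10.4, 0.363 and 0.433 CPM in LM9 and 9.59, 10.2 and 9.12 CPM in the KO-labelled libraries. Replicate 1 was slightly above the KO-labelled libraries and replicates 2 and 3 were far below them, so that the rise was 2.88 with and 4.53 without that library.

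Chemokines and cytokines fell in 19 of 32 cases, rose in 7 and did not pass in 6 (21, 8 and 3 without replicate 1), with a median of -1.56 (-2.04, or -1.36 with the genes at 0 counts set at their bounds). Of the 27 measured in both groups, 7 rose and 14 fell (8 and 16 without replicate 1), with a median of -1.06 (-0.76). Csf3, the granulocyte growth factor, was at 38, 68.4 and 64.5 CPM in LM9 and 0.181, 0.17 and 0.026 CPM in the KO-labelled libraries. Cxcl5, a neutrophil chemokine, was at 772, 149 and 152 CPM in LM9 and 0.57, 0.754 and 0.91 CPM in the KO-labelled libraries, with replicate 1 the highest library. Csf2, the growth factor GM-CSF, was at 3.0, 21.4 and 23.1 CPM in LM9 and 0.544, 0.535 and 0.546 CPM in the KO-labelled libraries, with replicate 1 the lowest LM9 library. Il33, an alarmin, rose from 75.5, 63.1 and 65.6 CPM to 285, 289 and 290.3 CPM and Ccl7, a monocyte chemokine, from 1.05, 1.57 and 1.85 CPM to 16.2, 16.2 and 17.1 CPM. Tnf, Lif and Lifr passed only without replicate 1, the first and second with falls (-0.71 and -0.31) and Lifr, the receptor of LIF, with a rise (0.54).

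The interferon response and antigen presentation moved in both directions. Of 33 genes 18 fell, 12 rose and 3 did not pass (19, 12 and 2 without replicate 1), with a median of -0.55 (-0.28, and 0.14 with total counts). With total counts 15 rose and 15 fell (16 and 15 without replicate 1). H2-D1, a class I histocompatibility chain, was at 3209, 4946 and 4876 CPM in LM9 and 240.3, 239.7 and 246 CPM in the KO-labelled libraries, and Nlrc5, the activator of class I genes, was at 70.8, 18.7 and 20.2 CPM in LM9 and 1.17, 1.56 and 1.22 CPM in the KO-labelled libraries. H2-D1 has close paralogues, so its count is uncertain. The antiviral genes Ifit1, Ifit2 and Oasl1 rose, with Ifit1 at 11.2, 4.23 and 5.16 CPM in LM9 and 104, 99.5 and 103 CPM in the KO-labelled libraries, Ifit2 at 18, 4.19 and 3.42 CPM in LM9 and 55.6, 55.5 and 54.4 CPM in the KO-labelled libraries and Oasl1 at 10.9, 18.5 and 20.3 CPM in LM9 and 235, 233 and 238 CPM in the KO-labelled libraries. Summed over the list, LM9 stood at 12329 CPM in replicate 1 and at 16538 and 16530 CPM in the others, and the KO-labelled libraries stood at 3331 to 3365 CPM.

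Hox genes record position along the body axis. Of 19 tested, 9 rose, 8 fell and 2 did not pass (9, 7 and 3 without replicate 1). Of the 19, 9 were below the minimum of the filter in every LM9 library, where the filter favoured a rise. A further 3 were below it in every KO-labelled library, where it favoured a fall. With total counts 9 rose and 5 fell (10 and 5 without replicate 1). Of the 7 measured in both groups, 0 rose and 5 fell (0 and 4 without replicate 1), with a median of -0.98 (-0.51). Hoxa5 was at 74.3, 83.9 and 86.2 CPM in LM9 and 1.4, 1.22 and 1.53 CPM in the KO-labelled libraries and Hoxa3 at 16.9, 10.2 and 9.52 CPM in LM9 and 0.519, 0.316 and 0.624 CPM in the KO-labelled libraries. Hoxd8 had 2 counts in LM9 and was at 32.6, 30 and 29.2 CPM in the KO-labelled libraries. The median of the list turned from -0.22 to 0.17 without replicate 1 and was 0.14 and 0.59 with total counts. With the 8 genes at 0 counts in a group set at their bounds, the first value stayed at -0.22.

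Markers of cell types were used to check the labelled origin. The label names a mammary tumour, and LM9 expressed mammary luminal markers. Of 18 luminal symbols 13 were tested, and their sum was 943 CPM in LM9 replicate 1 and 1537 and 1495 CPM in replicates 2 and 3, but 52.1 to 52.4 CPM in the KO-labelled libraries. In these, 9 of the 13 fell and 3 rose. Of the 6 measured in both groups, 1 rose and 4 fell (1 and 5 without replicate 1), with a median of -4.01 (-4.12). Ltf, lactoferrin, was at 0 counts in all KO-labelled libraries, and Krt18 and Cdh1, the epithelial cadherin, had 1 count in all. Gata3, the luminal transcription factor, stayed detectable at 5.55, 7.03 and 7.1 CPM against 127, 134 and 138 CPM in LM9. Esr1, the oestrogen receptor, was higher, at 9.38, 3.26 and 3.31 CPM in LM9 and 27.9, 26.4 and 26.2 CPM in the KO-labelled libraries. Kit, also in the luminal list, had no count in LM9 and 871 counts over the KO-labelled libraries. Krt8, Krt18, Krt19 and Cdh1 were thus at or near 0 in the KO-labelled libraries, but the list did not move in 1 direction.

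Of 13 mammary basal symbols 8 were tested, and 6 rose, with a sum of 100.2 to 112 CPM in LM9 and 232 to 235 CPM in the other group. Of the 3 measured in both groups, 2 rose and 0 fell (2 and 0 without replicate 1). Fibroblast markers rose in 7 of 11 cases, fell in 1 and did not pass in 3 (8, 3 and 0 without replicate 1). With total counts 7 rose and 1 fell (8 and 1 without replicate 1). Of the 7 measured in both groups, 3 rose and 1 fell (4 and 3 without replicate 1), with a median of 0.53 (0.81). The sum of all 11 was 519 CPM in LM9 replicate 1, 222 and 229 CPM in replicates 2 and 3 and 1319 to 1377 CPM in the KO-labelled libraries. Col1a1, the main chain of type I collagen, was at 6.07, 1.89 and 1.77 CPM in LM9 and 868, 895 and 935 CPM in the KO-labelled libraries. Its partner Col1a2 had no count in LM9, was at 0.622, 0.56 and 0.806 CPM in the KO-labelled libraries and was at least 5.48-fold higher. Dcn, decorin, was at 84.4, 15.7 and 15.1 CPM in LM9 and 12.3, 12.3 and 12.5 CPM in the KO-labelled libraries, and Pi16, a marker of a fibroblast subset, fell, at 33.4, 46.2 and 44 CPM in LM9 and 0.285, 0.0973 and 0.364 CPM in the KO-labelled libraries. Endothelial markers rose in 4 of 8 cases and fell in 3 (4 and 4 without replicate 1). Of the 5 measured in both groups, 1 rose and 3 fell (1 and 4 without replicate 1), with a median of -2.03 (-2.28). Cdh5, the cadherin of endothelial junctions, was at 0 counts in LM9 and at 67.8, 69.5 and 71.3 CPM in the other group, but Pecam1 was at 0.169, 1.33 and 1.14 CPM in LM9 and 0.415, 0.243 and 0.338 CPM in the KO-labelled libraries, and Eng fell, at 79.9, 71.6 and 67.7 CPM in LM9 and 1.37, 1.53 and 2.08 CPM in the KO-labelled libraries. Egfl7, a secreted endothelial protein, fell from 17.1, 23 and 21.2 CPM to 2.75, 1.9 and 2.05 CPM, and Vwf, von Willebrand factor, rose from 0.371, 0.604 and 1.5 CPM to 17.3, 17.4 and 18.1 CPM.

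Of 20 kidney tubule symbols 8 were tested, of which 7 rose and 1 fell in both comparisons. Of the 8, 4 were below the minimum of the filter in every LM9 library. Of the 4 measured in both groups, 3 rose and 1 fell (3 and 1 without replicate 1). The sum of all 8 was 252 CPM in LM9 replicate 1, 130.0 and 131 CPM in replicates 2 and 3 and 1283 to 1367 CPM in the KO-labelled libraries, most of it from Aqp2. Slc12a1, a salt transporter of the loop of Henle, was at 0.742, 0.685 and 1.06 CPM in LM9 and 9.02, 10.3 and 9.51 CPM in the KO-labelled libraries, Pax2 and Pax8, kidney transcription factors, were at 0.441, 0.365 and 0.416 CPM and 0.493, 0.438 and 0.676 CPM in the KO-labelled libraries, and Aqp3 fell, at 7.69, 24.7 and 25.8 CPM in LM9 and 1.06, 0.90 and 1.14 CPM in the KO-labelled libraries. Of 12 lung epithelium symbols 5 were tested, and 2 rose and 3 fell. With total counts 3 rose and 2 fell (3 and 2 without replicate 1). Of the 2 measured in both groups, 0 rose and 2 fell (0 and 2 without replicate 1). The members tested included Napsa, an aspartic protease, at 177, 198 and 200.1 CPM in LM9 and 0.622, 1.17 and 0.546 CPM in the KO-labelled libraries and Abca3, a lipid transporter, at 103, 121 and 133 CPM in LM9 and 104, 103 and 102 CPM in the KO-labelled libraries. Hopx, a homeodomain protein of alveolar cells, had no count in LM9 and was at 9.26, 9.03 and 9.82 CPM in the KO-labelled libraries. Of 14 immune symbols only Cd68, at 466, 549 and 554 CPM in LM9 and 96.1, 95.7 and 104 CPM in the KO-labelled libraries, and Csf1r, at 0.0337, 0 and 0 CPM in LM9 and 12.4, 11.4 and 13.2 CPM in the KO-labelled libraries, were tested, and the leukocyte marker Ptprc was not among the genes analysed here. The part of other cell types in the results above was not tested.

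**Figure D5:**
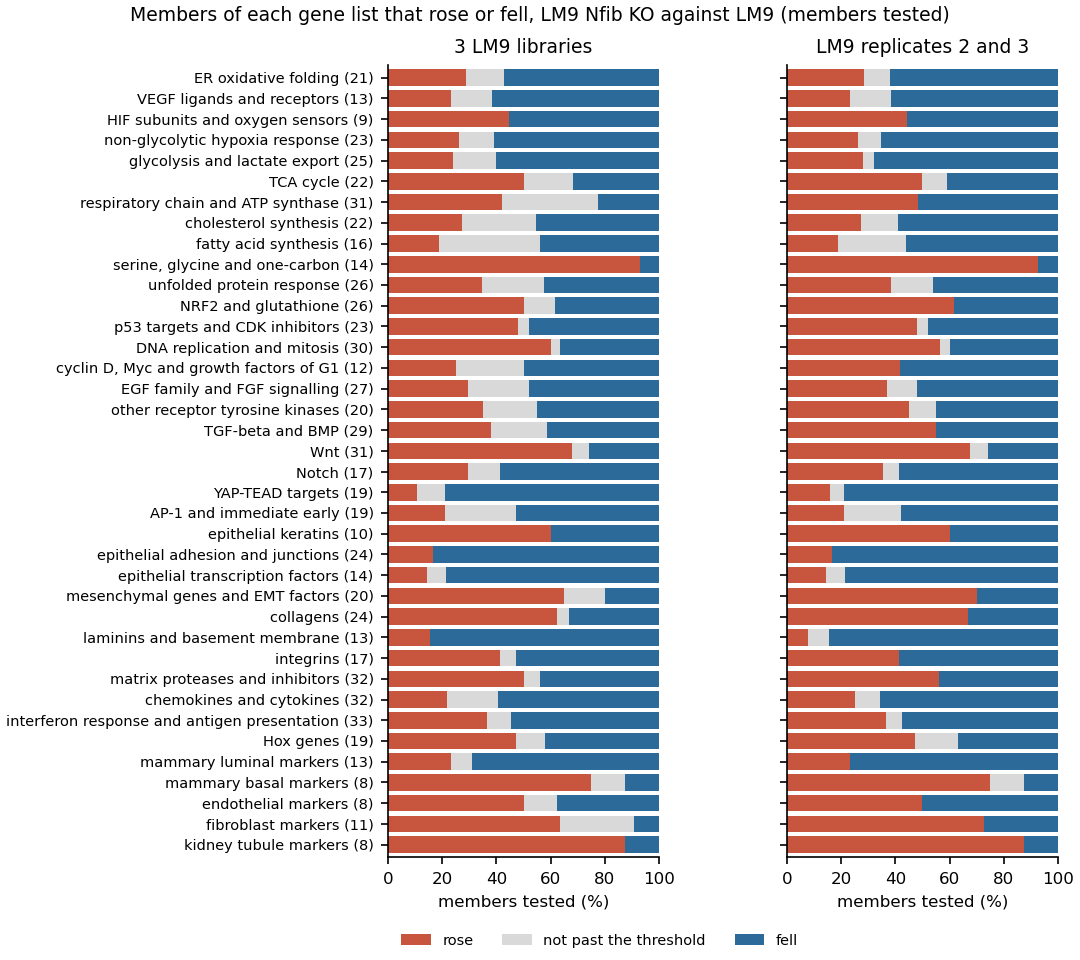
Share of the tested members of each gene list (lists of at least 8, number tested in brackets) that rose, fell or did not pass the threshold, in the KO-labelled libraries against 3 LM9 libraries (left) and against LM9 replicates 2 and 3 (right). The grey share shrinks most in the respiratory chain, from 11 of 31 genes to 0.

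Over all genes, 14719 passed in both comparisons, none of them with opposite signs, and 1745 passed in neither. The call of 1712 genes (9.42%) depended on LM9 replicate 1. Of these, 1466 passed only without it, with 776 rises and 690 falls, and their median absolute fold change was 0.21 with replicate 1 and 0.46 without, while the median SE went from 0.195 to 0.0798. The other 246 passed only with replicate 1. In 2030 genes (11.2%) the fold change moved by over 0.5 on the log2 scale, upwards in 1260 and downwards in 770, and in 745 genes its sign differed. Of 743 members of the lists, 642 passed with 3 LM9 libraries, 698 with 2, and the call of 62 depended on the choice. Lists with no dependent call were those of the VEGF, HIF, serine and one-carbon, p53, Wnt, keratin, junction, epithelial factor, NFI, basal, lung, immune and kidney genes. Some of these were too small to be read against the share of 9.42%, such as the immune (2 tested), NFI (4) and lung (5) lists. Fold changes could still move, as in the p53 list, whose median went from -0.46 to -0.12.

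The genes with the largest distance of replicate 1 from its group were of several kinds. Lilrb4a and Lilr4b, inhibitory receptors of myeloid cells, were at 0.304, 48.8 and 47 CPM in LM9 and 10.8, 10.6 and 11.9 CPM in the KO-labelled libraries, and at 0.236, 36.7 and 30.2 CPM in LM9 and 12, 11.7 and 11.6 CPM in the KO-labelled libraries, respectively. In both, replicate 1 was below and replicates 2 and 3 were above the other group. The fold change of Lilrb4a went from 0.47 ± 1.36 (SE, adjusted p = 0.759) to -2.11 ± 0.06 (SE, adjusted p = 1.74e-15). They are near-identical neighbours that overlap a joint gene model, so reads may have been split between them. Qpct, which forms pyroglutamate at peptide ends, was at 0.202, 20.5 and 20.3 CPM in LM9 and 97.9, 109 and 105 CPM in the KO-labelled libraries, and Sncg, gamma-synuclein, was at 0.0337, 3.02 and 3.31 CPM in LM9 and 42.5, 43.2 and 43 CPM in the KO-labelled libraries. Amdhd2, an enzyme of amino sugar breakdown, was at 0, 3.71 and 3.54 CPM in LM9 and 12.1, 12.3 and 11.5 CPM in the KO-labelled libraries, and Nckap1l, a regulator of actin in blood cells, was at 0, 0.806 and 0.276 CPM in LM9 and 14.7, 14 and 13.9 CPM in the KO-labelled libraries. Whrn, a scaffold protein, was at 0.0337, 2.7 and 2.87 CPM in LM9 and 23.6, 20.4 and 23.2 CPM in the KO-labelled libraries, and Chn2, a Rac regulator, at 0, 0.484 and 0.669 CPM in LM9 and 39.6, 39.9 and 39.4 CPM in the KO-labelled libraries. These 6 genes rose in both comparisons, but by less without replicate 1 (4.69 and 2.35 in Qpct).

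Genes higher in replicate 1 included Ror1, a receptor of Wnt5a, at 27.8, 1.25 and 1.57 CPM in LM9 and 10.6, 8.78 and 8.76 CPM in the KO-labelled libraries, which passed only without that library (2.71 in place of 1.18). Megf9, a membrane protein with EGF-like repeats, was at 32.6, 0.967 and 0.63 CPM in LM9 and 13.4, 13.7 and 14.3 CPM in the KO-labelled libraries, and the kinase Pskh1 was at 29.7, 2.94 and 3.86 CPM in LM9 and 13, 12.7 and 13.9 CPM in the KO-labelled libraries. In each of these, replicate 1 exceeded the other group and replicates 2 and 3 were below it. Bet1l, a SNARE protein of the Golgi, had the same order, at 31.2, 6.29 and 5.71 CPM in LM9 and 22.2, 20.2 and 20.5 CPM in the KO-labelled libraries, and overlaps other genes in the annotation. Jrk, Plcb1 and Aff3 were at 0.236, 0 and 0 CPM, 0.708, 0.0806 and 0 CPM and 0.304, 0 and 0 CPM in LM9. Among the LM9 libraries they were detected mainly in replicate 1, at low levels, and all 3 were much higher in the KO-labelled libraries (24.1, 22.1 and 23 CPM, 34.6, 34.5 and 34.8 CPM and 21.2, 21.5 and 21 CPM). Angpt4, an angiopoietin, was at 1.99, 0 and 0.236 CPM in LM9 and 382, 370.1 and 382 CPM in the KO-labelled libraries, and the excess in the KO-labelled libraries was large with and without replicate 1 (10.67 and 12.35). The 246 genes that passed only with replicate 1 had a median absolute log2 fold change of 0.76 with it and 0.48 without it. Cep68 and Cep97, both centrosomal proteins, were at 32.5, 18.7 and 16 CPM in LM9 and 15.9, 15.3 and 15.2 CPM in the KO-labelled libraries, and at 23.1, 8.95 and 9.64 CPM in LM9 and 7.6, 8.71 and 7.43 CPM in the KO-labelled libraries. Cisd3, an iron-sulfur protein of mitochondria, was at 10.7, 21.6 and 22.3 CPM in LM9 and 24.2, 23.3 and 24.4 CPM in the KO-labelled libraries, and Hacd1, a dehydratase of fatty acid elongation, at 5.7, 12.1 and 10.2 CPM in LM9 and 12.6, 12.6 and 12 CPM in the KO-labelled libraries. In these 4 genes replicate 1 was the LM9 library farthest from the KO-labelled libraries.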

How the data were processed

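RNA-seq was done on 12 tumoursphere libraries, 3 in each of 4 labelled groups. Per the study's methods, the authors prepared stranded poly-A libraries, aligned single-end reads to mm10 with STAR and counted read starts over the exon unions of genes with QuasR. The deposited values are these counts, not normalized. Versions, annotation, the treatment of multiply mapping reads and the strand setting of the counting are not given in the sources used here. The counts of LM9 summed to 30009590 to 31254571 and those of the libraries labelled LM9 Nfib KO to 34882800 to 37162594.

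Genes were kept by filterByExpr with a minimum count of 10 and a minimum total of 15, scaled by TMM factors (edgeR 4.0.16) and tested with limma-voom (limma 3.58.1, R 4.3.3), with an offset of 0.5 on the counts. All 12 libraries entered the fit, with 1 mean per group, and the repeat left out LM9 replicate 1 and kept the same genes and factors for CPM. Every adjusted p-value in the text is limma-voom's, two-sided, with Benjamini-Hochberg adjustment over 18176 genes and a threshold of 0.05. The script was tested on simulated counts. Replicates with the same number did not deviate together (correlations of -0.0315, -0.033 and -0.00602), and the numbers were not used as a block.

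The comparison, the gene lists and the rule below were chosen with earlier results of these data known. Named genes were Nfib, Ero1l, Vegfa and Hif1a; in each list, among members with at least 5 CPM, the 2 largest rises and 2 largest falls that passed both comparisons and the member that moved most without LM9 replicate 1; from all genes, the 10 largest changes in each direction at 100 CPM or more; and, at 10 CPM or more, the 8 genes in each direction in which LM9 replicate 1 was farthest from its group and the 5 largest changes that passed in only 1 comparison. Some of these genes are not reported here. List members whose call depended on LM9 replicate 1 and single members and markers outside the rule were named after their values were seen. Folds for genes at 0 counts in a group are lower bounds against 3 counts per library, and those for 1 to 3 counts have exact 95% intervals that cover counting error only. Gene positions and exon lengths are from GENCODE M21 on GRCm38, 1-based, for 18268 of 18278 listed genes. The alternatives were edgeR's quasi-likelihood test, DESeq2 1.42.0, other scalings, filters and weights, a replicate block and leaving out each replicate.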

Additional observations from a re-analysis of the deposited data

How the results depend on the processing

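The number of genes that passed was 13793 to 16131 with 3 LM9 libraries when other scalings, no count filter, sample quality weights, DESeq2 (14945), edgeR's quasi-likelihood test (14924) or the 6 libraries alone were used, and 10027 among genes of at least 5 CPM. Leaving out each replicate gave 14337 to 16185 genes with 3 LM9 libraries, 15539 to 16041 with 2, and 619 to 698 list members. The number of genes whose call depended on LM9 replicate 1 was 1712. It was 1114 among genes of at least 5 CPM, since fewer genes were tested, and 180 with sample quality weights, which weight down a library that deviates from its group. It was 1880 to 2555 when another replicate was left out. The labels give the groups the same replicate numbers, but the numbers did not pair the samples. With the replicate block 14839 and 16150 genes passed, and the call of 1767 depended on LM9 replicate 1.

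DESeq2 gave no adjusted p for 10 of the named genes with 3 LM9 libraries, which were left out there. Of the named genes' fold changes, 11 turned in sign where the value passed the threshold as reported or under the alternative, 5 of them under 2 settings. Values that passed under neither are not counted there, such as Trp63 (-1.49, and 0.65 with sample quality weights) and, with total counts, P4hb (0.24), Ccn2 (0.15) and Postn (0.20) with 3 LM9 libraries and Cep97 (0.19) without replicate 1. With total counts and without LM9 replicate 1, P4hb was 0.027, Hk2 0.13, Cox5b 0.12, Abca3 0.11 and Cep68 0.26, and with 3 LM9 libraries Abca3 was 0.15. With sample quality weights, Cox5b was -0.25, Ccn2 0.23, Postn 3.05, Lilrb4a -1.999 and Lilr4b -1.38. With each replicate left out in turn, and 3 LM9 libraries otherwise, Cox5b ranged from -0.30 to 0.21, Ccn2 from -0.45 to 0.25, Postn from -2.20 to 3.12, Lilrb4a from -2.11 to 1.70 and Lilr4b from -1.50 to 2.27. In each the end reached without LM9 replicate 1 was the one opposite in sign. Among genes given outside the naming rule, Birc5, Cyp51, Dcn, Ddit3, Dlst, Lif, Max, Ndufb8, Pgk1, Pkm, Sqle, Uqcrc1 and Vim fell without LM9 replicate 1 and turned with total counts, to 0.003 (Pkm) to 0.34 (Vim). With total counts the whole distribution shifted up, by 0.42 in its median without replicate 1. Depth limits genes near 3 counts per library, 0.073 to 0.121 CPM in these groups.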

Other observations

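Some genes outside the lists were looked at after their values were seen, and are given as values only. Of 9 protein-coding mitochondrial transcripts tested, 8 rose and 1 did not pass with 3 LM9 libraries, and without LM9 replicate 1 the 8 rose and the other fell. Their median log2 fold change was 4.88 (5.32). mt-Nd1, a subunit of complex I, was at 127, 49.3 and 52 CPM in LM9 and 2484, 2732 and 2776 CPM in the KO-labelled libraries, and mt-Cytb, cytochrome b, was at 112, 84.3 and 82.9 CPM in LM9 and 2794, 2649.7 and 2709 CPM in the KO-labelled libraries. In both, no library overlapped. The exception was mt-Co1, a subunit of cytochrome c oxidase, at 3379.8, 4749 and 5271 CPM in LM9 and 3487, 3527 and 3629.9 CPM in the KO-labelled libraries, with a log2 fold change of -0.31 ± 0.13 (SE, adjusted p = 0.0502) and -0.50 without replicate 1. Summed over the 9, LM9 stood at 4055, 5048 and 5588 CPM and the KO-labelled libraries, those labelled LM9 Nfib KO, at 13518, 14667 and 14806 CPM. The 2 mitochondrial ribosomal RNAs went otherwise. Neither passed with 3 LM9 libraries. mt-Rnr1 was at 169, 638 and 479.6 CPM in LM9 and 266, 282 and 278 CPM in the KO-labelled libraries and fell without replicate 1 (-1.01 ± 0.08, SE, adjusted p = 3.4e-09), and mt-Rnr2 was at 248, 1030.2 and 781 CPM in LM9 and 736, 830.2 and 811 CPM in the KO-labelled libraries, with a fold change of -0.18 (adjusted p = 0.0546) without replicate 1, which was the lowest LM9 library in both. The nuclear genome holds copies of mitochondrial genes, and how multiply mapping reads were counted is not given in the sources used here, so these counts are uncertain.

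Genes of cytosolic ribosomal proteins, the structural parts of the ribosome, were taken by symbol, and a few related genes entered with them. They fell in 74 of 81 cases, rose in 3 and did not pass in 4 (77, 3 and 1 without replicate 1), where 38.0% and 41.2% of all genes fell. With 3 LM9 libraries the rises were those of Rpl28 and of the related genes Rpl7l1 and Rpl3l, the last at 0.365 to 0.676 CPM in the KO-labelled libraries. The median was -1.56 (-1.76). LM9 replicate 1 was below replicates 2 and 3 in 79 of the 81, with a median difference of -0.64. The summed level was 27818 CPM in replicate 1, 43763 and 42012 CPM in replicates 2 and 3, and 13733 to 14192 CPM in the KO-labelled libraries. Their median exon length was 1781 bases. Many of these genes have processed pseudogenes, so reads may have been split between copies.

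Cdkn2a (chr4:89274471-89294653, minus strand, mm10) and Cdkn2b, which encode inhibitors of cyclin D kinases, were near or at 0 in LM9 and present in the KO-labelled libraries. Cdkn2b had no count in LM9 and was at 15.1, 15.9 and 15.4 CPM. Of the other listed genes within 500000 bases, Dmrta1 had no count in LM9 and was at 0.674, 0.584 and 0.494 CPM, and Mtap, a purine salvage enzyme, was at 430.4, 533 and 530.0 CPM in LM9 and 239.7, 239.8 and 246 CPM in the KO-labelled libraries. Cdkn2a was at a mean of 0 CPM in the LM1 libraries.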
